A study of Homo sapiens with 6 samples.

Results

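The genes described are 10 regulators of the passage from G1 into S phase of the cell cycle: the D-type cyclins CCND1 and CCND3, the E-type cyclins CCNE1 and CCNE2, the cyclin-dependent kinases CDK2, CDK4 and CDK6, the kinase inhibitors CDKN1A (p21) and CDKN1B (p27), and the retinoblastoma protein RB1. They were read by every probe set that the array platform's annotation assigns to one of these symbols and to no other gene, which gave 23 probe sets out of 54675 on the array, for 10 of the 19775 symbols that the annotation lists singly. On this array a set of short oligonucleotides, called a probe set, reports on 1 stretch of a transcript, and some genes have several. The genes were selected on the comparison of the 2 groups, with its fold changes and calls already known, among them a call of CCNE1. Their differences between the groups are therefore a description of these arrays, without a test.

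In G1, growth signals raise D-type cyclins, which bind CDK4 or CDK6 and begin to phosphorylate RB1. Phosphorylated RB1 releases E2F transcription factors, which drive the cyclin E genes and the genes of DNA replication, and cyclin E with CDK2 completes the phosphorylation of RB1. p21 and p27 hold cyclin E and CDK2 in check, and p21 is a classical target of p53. Much of this control acts on proteins, through phosphorylation and degradation, which message levels do not show.

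The cells were MDA-MB-231, an established human triple-negative breast cancer line that is known to carry mutant p53 and a deletion of CDKN2A, the gene of the CDK4 and CDK6 inhibitor p16. In 3 samples the cells stably expressed a short hairpin RNA (shRNA) against MYOSIN10, now named MYO10, a motor protein of filopodia, and in the other 3 a scramble shRNA. All grew in L-15 medium with serum, and each sample was read on 1 Affymetrix array with a labelling chemistry that favours the 3' end of transcripts. The hairpin sequences, the number of hairpins and whether the lines were clones or pools are not stated in the labels. They also do not say whether the numbers 1 to 3 mark separate cultures, so the spread between samples may be technical.

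MYO10 stood lower on all 3 MYOSIN10 shRNA arrays with 3 of its 5 kept probe sets. The brightest read 11.57, 11.96 and 11.86 on scramble arrays 1 to 3 and 10.70, 11.39 and 10.64 on MYOSIN10 shRNA arrays 1 to 3, in log2 signal after 16 was added to the linear signal, the scale of every value below. This put the message at 54.2% of scramble, with a log2 fold change of -0.88 ± 0.17 (SE; limma, Benjamini-Hochberg adjusted p = 0.0318). That call ended without scramble array 1 or 3 or MYOSIN10 shRNA array 1 or 3 (limma adjusted p = 0.0759, 0.163, 0.145 and 0.151). Of the 4 dimmer probe sets, limma called none. Among them 216222_s_at (-0.74, limma adjusted p = 0.0514) and 236718_at (-0.58, 0.163) were lower without overlap, 244350_at was lower with overlap (-0.84, 0.126), and 1554026_a_at had the opposite sign with overlap (0.31, 0.647). Correlations between arrays ran from 0.973 to 0.982 over 15 pairs, and scramble array 2 was closer on average to the other group (0.978) than to its own (0.977). The line's markers VIM and CD44 were above the 99th percentile on every array, PGR and CDH1 did not reach the signal filter described below, and ESR1 and ERBB2 did. CDKN2A was dim, with 5.75 to 6.40 over the 6 arrays, against 5.56 to 5.66 for the 40th percentile of the arrays.

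Dim probe sets were left out of the fit: only those at or above their array's 40th percentile on 3 or more arrays entered. That kept 33370 probe sets in all and 20 of the 23 of these genes, with at least 1 for each gene. Of the 20, 19 reached it on all 6 arrays and 1 on 5. The 3 that were left out read CCND3 (1562028_at), CCNE1 (242105_at) and CDK2 (211803_at) and lay between 4.11 and 6.41. The added 16 sets a floor just above 4. On each array 412 to 553 probe sets had a deposited log2 value of 0 and lay there. Over all 33370 kept probe sets, 353, or 1.06%, passed limma's adjusted p of 0.05, with 0.692% higher and 0.366% lower with MYOSIN10 shRNA. Without the trend of the variance on mean signal, limma called 0 (3665 at an unadjusted p under 0.05), so each call given here, MYO10 included, rests on that setting. Of the 20, 4 were called with the trend, 1 higher (CCNE1) and 3 lower (all of CDK6). The groups did not overlap in 7 of the 20, against 18.1% of all kept probe sets. A probe set that was not called may still differ between the groups. Each 95% interval given below is for 1 probe set, rests on the same trend and is not adjusted over all kept probe sets. Its ends are not limits of the difference. Since the genes were chosen with this comparison known, nothing is read from either count. The median log2 fold change was 0.0060 over the 20 and -0.0020 over all kept probe sets, and 10 of the 20 were positive and 10 negative.

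**Figure D1:**
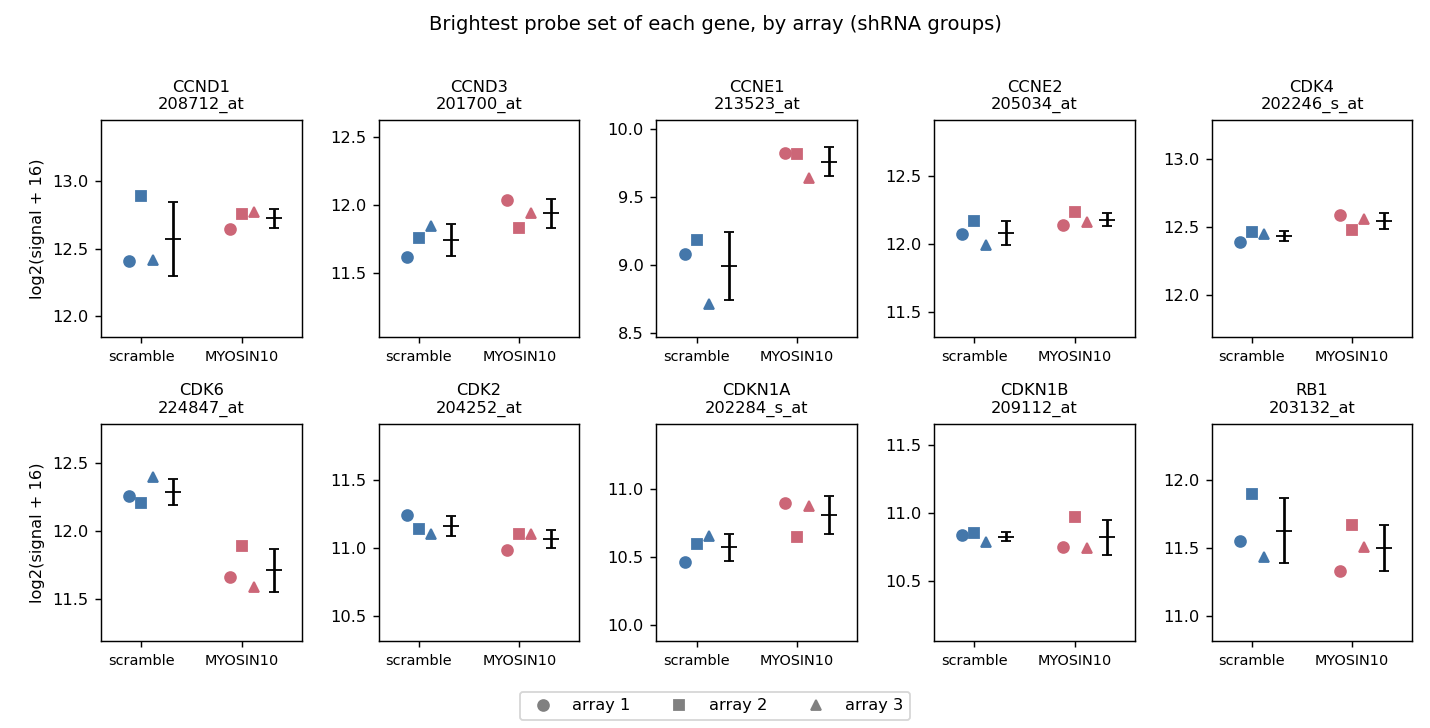
Log2(signal + 16) of the brightest probe set of each of the 10 genes on the 6 arrays, scramble shRNA in blue and MYOSIN10 shRNA in red, with symbols for arrays 1 to 3 and a black bar for the group mean ± SD (n = 3). Every panel spans the same height on the log2 axis, so distances compare between genes and levels do not. CCNE1 (8.99 to 9.76) and CDK6 (12.28 to 11.71) show the wide gaps between the group means, and the other 8 genes differ by at most 0.24.

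The sequences before the start of CCNE1 and CDK6, the genes with called probe sets, are given here. Those of E2F2 and E2F7, the called E2F genes of the pathway comparison below, follow. RefSeq's table on GRCh38.p14 held windows for 7 of the 10 genes. Each sequence is the stretch of 250 bases just before an annotated transcription start, 5' to 3' on the gene's strand. Capitals mark the GC box GGGCGG, a binding site of Sp1 family factors, and the E2F words TTTGGCGC, TTTGCCGC, TTTCGCGC and TTTCCCGC, each searched on both strands. For CDK6 the table holds 2 starts, and both are shown.
CCNE1, chr19:29811741-29811990, plus strand: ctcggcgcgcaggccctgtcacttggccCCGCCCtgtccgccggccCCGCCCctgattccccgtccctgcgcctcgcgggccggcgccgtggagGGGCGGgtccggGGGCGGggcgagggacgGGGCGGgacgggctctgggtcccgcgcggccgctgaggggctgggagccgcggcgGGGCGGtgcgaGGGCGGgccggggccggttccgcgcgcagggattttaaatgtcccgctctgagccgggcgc
CDK6, chr7:92836574-92836823, minus strand: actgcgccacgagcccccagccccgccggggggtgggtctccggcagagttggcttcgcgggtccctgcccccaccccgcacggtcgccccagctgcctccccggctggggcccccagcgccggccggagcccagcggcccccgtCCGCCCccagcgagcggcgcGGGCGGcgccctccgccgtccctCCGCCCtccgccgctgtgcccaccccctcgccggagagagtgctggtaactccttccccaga
CDK6, chr7:92833960-92834209, minus strand: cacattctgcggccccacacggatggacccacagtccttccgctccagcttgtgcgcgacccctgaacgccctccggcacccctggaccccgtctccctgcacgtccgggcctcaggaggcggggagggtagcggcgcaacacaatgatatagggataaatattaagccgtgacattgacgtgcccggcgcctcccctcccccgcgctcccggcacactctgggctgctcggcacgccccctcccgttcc
E2F2, chr1:23531234-23531483, minus strand: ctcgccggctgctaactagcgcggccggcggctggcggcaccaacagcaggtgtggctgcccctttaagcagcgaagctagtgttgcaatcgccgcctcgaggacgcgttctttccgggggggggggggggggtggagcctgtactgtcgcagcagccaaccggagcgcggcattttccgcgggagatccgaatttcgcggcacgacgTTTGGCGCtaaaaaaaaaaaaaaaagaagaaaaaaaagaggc
E2F7, chr12:77065570-77065819, minus strand: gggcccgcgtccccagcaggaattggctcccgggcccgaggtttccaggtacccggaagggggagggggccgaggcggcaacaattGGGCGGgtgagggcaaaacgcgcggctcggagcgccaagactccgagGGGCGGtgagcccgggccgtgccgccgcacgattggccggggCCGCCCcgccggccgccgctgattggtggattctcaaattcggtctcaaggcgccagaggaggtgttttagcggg

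The CCNE1 window held 7 GC boxes, and 1.12% of 35116 windows of the same length held as many or more. The first CDK6 window held 3 GC boxes and the second 0, that of E2F7 3 and that of E2F2 0, and 42.6% of all windows held at least 1. Among the genes without a call, the windows of CCND3 held 5, 2 and 0 GC boxes. Those of CDKN1A held 4, CDK4 3, CDKN1B 1 and RB1 0, and none of these windows held an E2F word. The RB1 window lies at chr13:48476200-48476449, with 36.8% G and C. No window at any other RB1 start was searched, so its 0 speaks only for that stretch. A link between these words and the calls was not tested. No E2F word was in the CCNE1 window, in either CDK6 window or in the E2F7 window, which says only that these letters are not there. E2F2 had 1, TTTGGCGC, whose first base lies 42 bases before the start, and 2.8% of all windows held any of the 4 words. No E2F word overlapped a GC box in any of these windows. G and C made up 81.2% of the CCNE1 window, 80% and 67.6% of the CDK6 windows and 60.8% of the E2F2 window and 71.2% of the E2F7 window, against a mean of 57.2%.

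Of the D-type cyclins, neither was called. CCND1, the gene of cyclin D1, read 12.41, 12.88 and 12.41 on the scramble arrays and 12.64, 12.75 and 12.77 on the MYOSIN10 shRNA arrays with its brighter probe set, 208712_at. Scramble array 2 was the highest of the 6, and the other 2 scramble arrays lay below all of the MYOSIN10 shRNA arrays, so the groups overlapped through that array alone. The difference was 0.15 ± 0.12 (SE), with a 95% interval from -0.097 to 0.40. Without scramble array 2 it was 0.31, and the probe set was then called. The second probe set, 208711_s_at, was also highest on scramble array 2 of all 6 and had a difference of 0.15 ± 0.13 (SE). CCND3, the gene of cyclin D3, read 11.61, 11.76 and 11.84 with scramble shRNA and 12.04, 11.83 and 11.94 with MYOSIN10 shRNA, a difference of 0.20 ± 0.090 (SE). The groups met at scramble array 3 and MYOSIN10 shRNA array 2, which were 11.84 and 11.83.

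CDK6, a kinase partner of the D-type cyclins, was lower in the MYOSIN10 shRNA cells with each of its 3 brightest probe sets. The probe set 224851_at read 11.38, 11.40 and 11.38 on scramble arrays 1 to 3 and 10.65, 10.78 and 10.46 on MYOSIN10 shRNA arrays 1 to 3. The scramble arrays were nearly identical and the groups did not overlap, with a difference of -0.76 ± 0.097 (SE), or 59.1% of the scramble level. The brightest, 224847_at, read 12.25, 12.21 and 12.39 against 11.66, 11.89 and 11.58. Again every MYOSIN10 shRNA array was below every scramble array, which is 67.2% of the scramble level (-0.57 ± 0.095, SE). With 224848_at the values were 11.11, 11.19 and 11.05 against 10.23, 10.66 and 10.29, also without overlap, which is 60.7% of the scramble level (-0.72 ± 0.12, SE). Of these, 224851_at stayed called without any single array, while 224847_at and 224848_at were not called without scramble array 1 or 3 or MYOSIN10 shRNA array 1 or 3.

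In each of these 3 probe sets, MYOSIN10 shRNA array 2 was the highest of its group. That array also had the highest MYO10 signal among the knockdown arrays (11.39 against 10.70 and 10.64). Over all 20 kept probe sets, 11 had their highest MYOSIN10 shRNA value on array 2, and 14 had their highest scramble value on scramble array 2. With 3 arrays in the group, the link between CDK6 and MYO10 was not tested.

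The 4 other CDK6 probe sets were dimmer and spread more widely. The group means of 207143_at, 235287_at and 231198_at lay between 5.73 and 6.85, near the signal of the deleted CDKN2A (5.75 to 6.40). The probe set 235287_at read 6.63, 7.25 and 6.69 with scramble shRNA and 6.21, 6.25 and 6.29 with MYOSIN10 shRNA. Its groups did not overlap, but it was not called (-0.60 ± 0.25, SE). The groups overlapped for 243000_at (-0.28 ± 0.23, SE), 207143_at (-0.024 ± 0.30, SE) and 231198_at (-0.61 ± 0.49, SE). In the last, MYOSIN10 shRNA array 1 stood at 4.56, far below arrays 2 and 3 at 6.36 and 6.28, and without it the difference was -0.023. The sign of 207143_at turned without scramble array 3, to 0.33, and without MYOSIN10 shRNA array 1, to 0.071. All 7 CDK6 probe sets share 1 gene and are not replicates of the comparison.

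**Figure D2:**
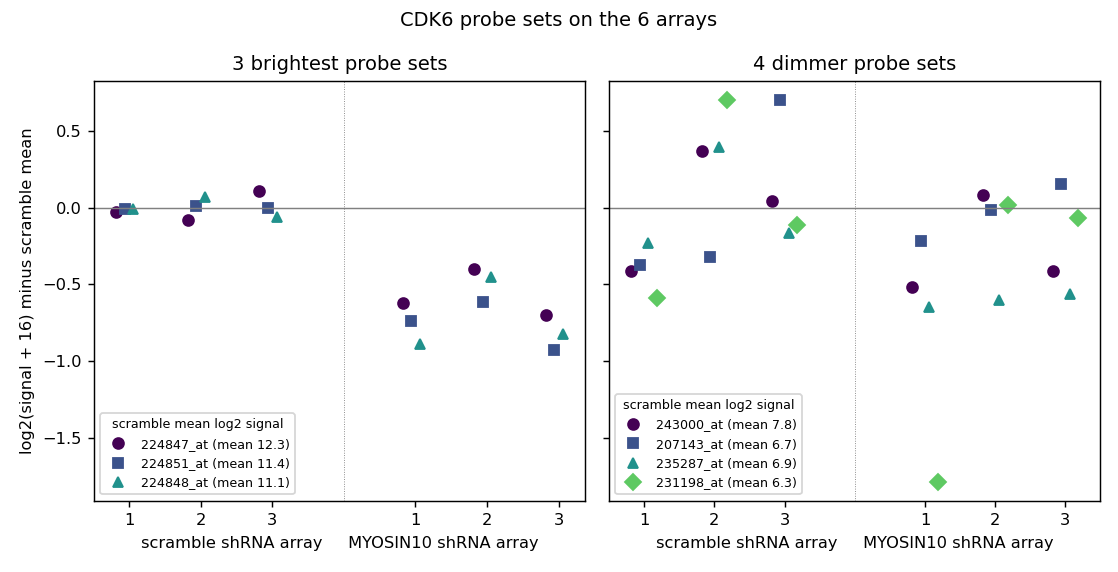
Signals of the 7 CDK6 probe sets on the 6 arrays as log2(signal + 16) minus the mean of the 3 scramble arrays, with the 3 brightest probe sets on the left and the 4 dimmer ones on the right. On the left all scramble points lie between -0.078 and 0.11 and all MYOSIN10 shRNA points between -0.93 and -0.40. On the right the points of both groups mix, apart from those of 235287_at.

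CDK4, the closest relative of CDK6 and its alternative as partner of the D-type cyclins, did not share its lower signal. It read 12.39, 12.46 and 12.45 with scramble shRNA and 12.59, 12.48 and 12.56 with MYOSIN10 shRNA on its single probe set. The MYOSIN10 shRNA arrays were all higher by a small margin, with a difference of 0.11 ± 0.073 (SE; 95% interval from -0.049 to 0.27). On the scale of differences, CDK6 (224847_at) minus CDK4 came to -0.68. Taken within each array, that log2 ratio ran from -0.25 to -0.056 on the scramble arrays and from -0.98 to -0.59 on the MYOSIN10 shRNA arrays, without overlap.

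The message of cyclin E1, a protein that activates CDK2 late in G1, was higher in the MYOSIN10 shRNA cells. CCNE1 (213523_at) read 9.08, 9.18 and 8.71 on scramble arrays 1 to 3 and 9.83, 9.82 and 9.64 on MYOSIN10 shRNA arrays 1 to 3. All 3 knockdown arrays were above all 3 scramble arrays, and scramble array 3 was the lowest of its group. The group means were 8.99 ± 0.25 and 9.76 ± 0.11 (SD, n = 3 each), a 1.71-fold difference (log2 0.77 ± 0.14, SE). Over leaving out each array the log2 difference ran from 0.63 (without scramble array 3) to 0.87, and the call held without scramble array 2 and ended without any other single array. The second CCNE1 probe set, 242105_at, was not kept and lay between 4.11 and 4.57 on all 6 arrays, lower with MYOSIN10 shRNA and too near the floor to give a size.

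CCNE2, the gene of the paralogue cyclin E2, differed little. Its brighter probe set, 205034_at, read 12.07, 12.17 and 11.99 with scramble shRNA and 12.14, 12.23 and 12.16 with MYOSIN10 shRNA, overlapping, with a difference of 0.099 ± 0.079 (SE; 95% interval from -0.073 to 0.27). The dimmer one, 211814_s_at, read 9.50, 9.51 and 9.34 against 9.64 on each MYOSIN10 shRNA array. There the knockdown arrays were all higher, by 0.19 ± 0.11 (SE), and the probe set was not called. Between the brighter probe sets, the difference of CCNE1 exceeded that of CCNE2 by 0.67 on the log2 scale.

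CDK2, the kinase that cyclin E activates, overlapped between the groups with both kept probe sets. The brighter, 204252_at, read 11.24, 11.14 and 11.10 with scramble shRNA and 10.98, 11.10 and 11.10 with MYOSIN10 shRNA (-0.099 ± 0.087, SE). The dimmer, 211804_s_at, gave 0.018 ± 0.18 (SE), a value whose sign changed in 2 of 15 alternatives.

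The inhibitors were not called. CDKN1A read 10.46, 10.60 and 10.66 with scramble shRNA and 10.90, 10.65 and 10.88 with MYOSIN10 shRNA. MYOSIN10 shRNA arrays 1 and 3 lay above the scramble arrays and array 2 lay within them, for a difference of 0.24 ± 0.10 (SE; 95% interval from 0.015 to 0.46). CDKN1B read 10.84, 10.86 and 10.79 against 10.75, 10.97 and 10.75, with a difference of -0.0057 ± 0.095 (SE; 95% interval from -0.21 to 0.20). Without both arrays numbered 2, the values were 0.33 for CDKN1A and -0.066 for CDKN1B.

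RB1, the substrate of these kinases, read 11.55, 11.89 and 11.43 with scramble shRNA and 11.33, 11.67 and 11.50 with MYOSIN10 shRNA on its brighter probe set, 203132_at. Array 2 was the highest in both groups, and the difference was -0.12 ± 0.12 (SE). The dimmer probe set, 211540_s_at, had the opposite sign, 0.14 ± 0.25 (SE). Each of the 2 changed sign in 1 alternative, the brighter to 0.010 without scramble array 2 and the dimmer to -0.021 without MYOSIN10 shRNA array 3. The dimmer reached 0.39 without scramble array 2.

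**Figure D3:**
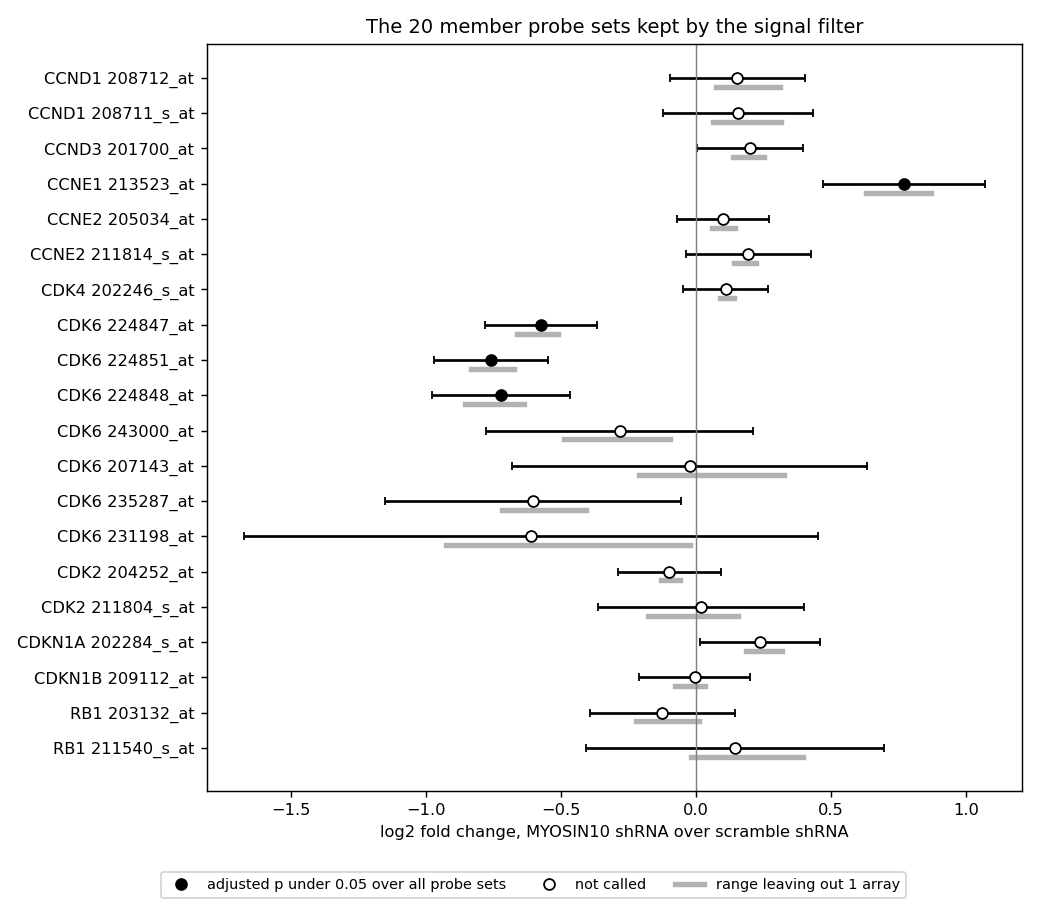
Log2 fold change of MYOSIN10 shRNA over scramble shRNA for the 20 kept probe sets, with the 95% interval from the fit over all 33370 probe sets as black bars and the range over leaving out each array in turn as grey bars. Filled points mark the 4 probe sets called over all probe sets, 1 of CCNE1 and 3 of CDK6. Their grey bars stay on one side of 0, which groups without overlap make certain. The grey bars of several uncalled probe sets, those of CCND3 and CDKN1A among them, also do.

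Other genes of the pathway were taken as 6 lists of 105 genes in all, with the brightest kept probe set, by its mean signal over all arrays, standing for each gene. In these lists 97 genes were measured, and 4, or 4.12%, passed limma's adjusted p of 0.05 over all kept probe sets, 3 higher and 1 lower. Over all 14174 genes read the same way 1.39% passed, 1.05% higher and 0.339% lower. The median log2 fold change was 0.041 over the 97 genes and 0.0093 over all genes. Of the 97, 63 were positive and 34 negative, and 51.8% of all genes were positive. Without scramble array 1 or 3 or any 1 of the 3 MYOSIN10 shRNA arrays, limma called 0 of the 97 (10 to 13 at an unadjusted p under 0.05), and without scramble array 2 it called 5. Over all genes, 15.1% had an unadjusted p under 0.05, and over the 97 it was 15 genes.

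The E2F and DP factors, only some of which RB1 and its relatives bind, held 2 of these calls among 10 measured genes. E2F2, an activator of S phase genes, rose from 8.69, 8.42 and 8.51 to 9.29, 9.02 and 9.16, without overlap (0.62 ± 0.13, SE; limma adjusted p = 0.0495). E2F7, a repressor of the same genes, fell from 12.35, 12.34 and 12.34 to 11.99, 12.02 and 11.94, also without overlap (-0.36 ± 0.073, SE; limma adjusted p = 0.0383). The E2F2 call ended with 1 added in place of 16 and after quantile normalization (limma adjusted p = 0.0534 and 0.0580), and over the 16 alternatives its adjusted p ran from 0.0192 to 0.228. A dim second probe set of E2F2 stood at -0.34 (limma adjusted p = 0.843) and one of E2F7 at -0.088 (0.931). The remaining 8 genes, E2F1 and E2F3 among them, did not pass. Positive values were found in 8 of the 10, against 51.8% of all genes, and the median of the 10 was 0.11.

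With the brightest probe set of each, no gene on the list of S phase entry genes driven by E2F passed. That list leaves out the cyclin E genes, CCNE1 and CCNE2, of which CCNE1 was called. Of 29 measured genes, which include the MCM helicase subunits, PCNA and the ribonucleotide reductase subunits, 0 were called with limma and 3 had an unadjusted p under 0.05, 17 were positive and 12 negative, and the median was 0.020. TYMS, the enzyme that makes thymidylate, read 14.29, 14.29 and 14.41 against 14.48, 14.48 and 14.55, a difference of 0.17 (limma adjusted p = 0.274). Thymidine kinase, TK1, stood at 0.21 (limma adjusted p = 0.327), and its second probe set at 0.075. The values of the 29 ran from -0.21 to 0.31. MCM10, a replication initiation factor, differed between its probe sets. Its brightest, 220651_s_at, which stands for it in the count, gave 0.21 (limma adjusted p = 0.535), whereas its next brightest passed with 0.55 (limma adjusted p = 0.0233) and its dimmest gave 0.48 (0.333). Among the other kept probe sets of the 6 lists, it was the one call.

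The other G1 cyclins, CDK inhibitors and pocket proteins held 0 calls among 8 measured genes with limma, and 1 had an unadjusted p under 0.05. That gene was RBL2, which encodes the RB1 relative p130. It read 10.63, 10.53 and 10.33 against 10.03, 9.95 and 10.21, lower on all 3 MYOSIN10 shRNA arrays (-0.43 ± 0.11, SE; limma adjusted p = 0.099). CCNA1, a cyclin A, stood at 0.41 (limma adjusted p = 0.478) with overlapping groups, and at 0.21 without scramble array 2 and 0.68 without scramble array 3. The 8 include CDKN2A, known to be deleted in this line, so passing the filter does not show that a gene is expressed. The genes not measured were CDKN2B, CDKN2C and CDK3. CDKN2B had 2 probe sets, of which 0 were kept, and CDKN2C and CDK3 had no probe set assigned to their symbol alone.

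Among 18 measured genes of the turnover and activation of G1 cyclins and their inhibitors, limma called 0, and 2 had an unadjusted p under 0.05. FBXW7, the substrate receptor of the ubiquitin ligase that degrades cyclin E, read 9.61, 9.64 and 9.72 against 9.17, 9.49 and 9.25, without overlap (-0.35 ± 0.12, SE; limma adjusted p = 0.209). Its 3 dimmer probe sets gave -0.12, 0.11 and 0.70. CCNH, the cyclin of the kinase that activates CDKs, stood at 0.29 (limma adjusted p = 0.261).

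Of 17 measured p53 target genes other than CDKN1A, DDB2, a DNA damage recognition protein, was the single call. It rose from 8.77, 9.05 and 8.83 to 9.74, 9.58 and 9.47, without overlap (0.72 ± 0.13, SE; limma adjusted p = 0.0195). In this list 16 did not pass, 5 had an unadjusted p under 0.05, and the median was 0.041. The G2 and M phase list of 15 measured genes also had 1 call, that of the mitotic kinase AURKB, which rose from 10.50, 11.07 and 10.60 to 11.28, 11.44 and 11.40 (0.65 ± 0.13, SE; limma adjusted p = 0.0373), while a dimmer probe set gave 0.21 (0.731). The other 14 did not pass, among them the proliferation marker MKI67 at 0.020 (limma adjusted p = 0.962), and the median was 0.045. Of the 15, 13 were positive and 2 negative.

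**Figure D4:**
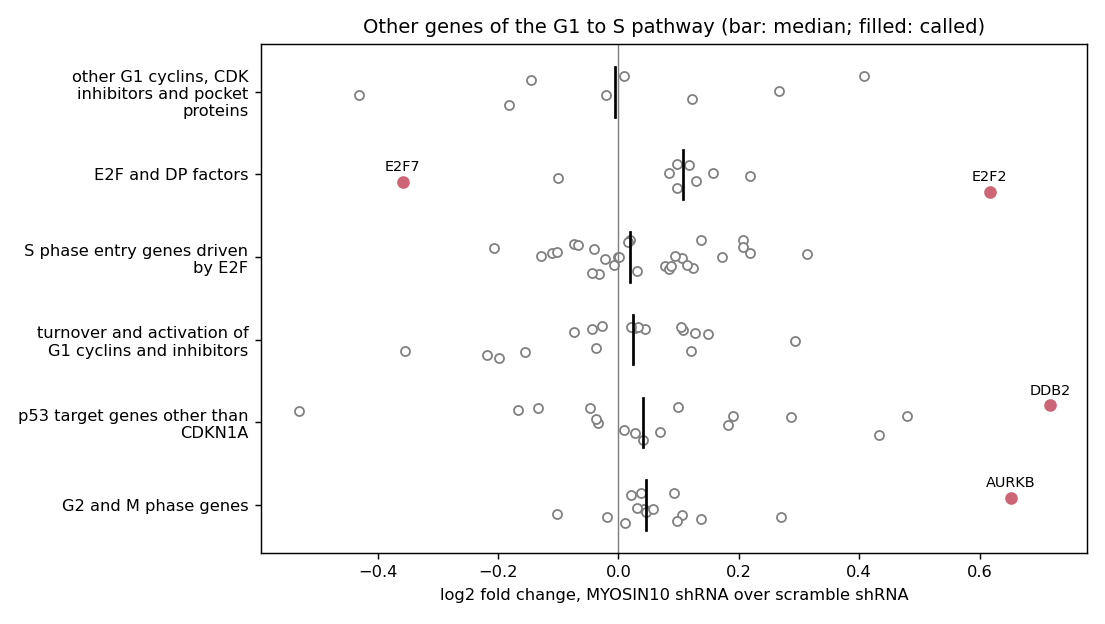
Log2 fold change of MYOSIN10 shRNA over scramble shRNA for the 97 measured genes of the 6 pathway lists, 1 point per gene, with a black bar at each list's median. The 4 filled and named points passed limma's adjusted p of 0.05 over all kept probe sets (E2F2, E2F7, DDB2 and AURKB), and the list medians lie between -0.0054 and 0.11.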

How the data were processed

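The authors' values were made with MAS5, per the submitters' processing notes, a method that works array by array and then scales each array. Its version and scaling target: not given in the sources used here. Deposited values are on a log2 scale, as judged from the numbers: unlogged, their trimmed mean (2% off each end) was 500.1 on every array. Arrays carry no read depth, and 3 arrays per group limit the precision.

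Signals were unlogged, raised by 16 and put back on the log2 scale, which understates fold changes of dim probe sets. Kept probe sets were fitted with limma 3.58.1 in R 4.3.3 (lmFit, eBayes with the variance trended on mean signal, the group alone in the model, two-sided, Benjamini-Hochberg over all 33370). The steps were tested on simulated data. Symbols came from the platform's annotation (1 symbol for 41097 probe sets, several for 1801, none for 11777), those of the lists updated through RefSeq's table (41043 matched). Named were all probe sets of the 10 genes, MYO10, and of each list up to 4 called genes with the largest change or, with no call, the 2 with the smallest p; E2F1, E2F3, MCM10 and MKI67 were named after their values were seen. The genes, lists and tests were chosen with earlier results of these data known. Alternatives changed the pseudocount (1 or 64), filter, scaling, variance model, array weights, replicate block, probe set rule and arrays used. Plots: Python 3.11.15, matplotlib 3.10.9.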

Additional observations from a re-analysis of the deposited data

How the results depend on the processing

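The signs of the CCNE1 probe set and of the 3 bright CDK6 probe sets held in every alternative run for them. These were 16 for CCNE1 and 224847_at and 15 for 224851_at and 224848_at. The fit with one probe set per gene leaves the last 2 out. As the groups do not overlap in these probe sets, changing the arrays, weights or pseudocount could not turn a sign. The held signs are therefore no support for the differences. Among the 20 probe sets, 4 were called, and the count ran from 1 to 5 on leaving out each array in turn. It was 2 with one probe set per gene, where 10 remain, and 0 with eBayes without the variance trend (5 at an unadjusted p under 0.05 in limma). CCNE1 was also not called with no filter on low values. The count over all probe sets, 353, ran from 59 to 1466 on leaving out each array. It was 173 without a filter, 0 without the trend (3665 at an unadjusted p under 0.05 in limma), 949 with array weights, 229 with one probe set per gene and 1655 without both arrays numbered 2. The pathway lists' 4 calls became 0 to 5 on leaving out each array, 1 without a filter, 0 without the trend (8 at an unadjusted p under 0.05) and 7 without both arrays numbered 2. MYO10 stood at -0.88 without a filter and without the trend, in both cases no longer called (limma adjusted p = 0.106 and 0.309), and ran from -1.12 to -0.75 on leaving out each array. Its adjusted p over the 16 alternatives ran from 0.000312 to 0.309.

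The labels give both groups the numbers 1 to 3. Deviations from the group means correlated between same-numbered arrays at 0.033, 0.12 and 0.013, and between differently numbered arrays at -0.075 to 0.049. The highest value, 0.12, was that of both arrays numbered 2. Each of them correlated negatively with the differently numbered arrays of the other group. Deviations cancel within each group, so these negative values follow on balance from the positive one and add nothing to it. The labels do not say that the numbers pair the samples, so the main fit held the group alone. With the replicate number as a block, 891 probe sets were called, and the counts in the 20 probe sets and in the lists were 4 and 4. The cause of these changes was not tested.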
